A study of Mus musculus with 24 samples.

Results

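Glutathione S-transferases are enzymes that join the tripeptide glutathione to reactive, mostly electrophilic compounds. The 10 genes described here, Gsta1, Gsta2, Gsta3, Gsta4, Gstm1, Gstm2, Gsto1, Gstp1, Gstt1 and Mgst1, are 10 of the 24043 gene symbols in the deposited expression table of C2C12 cells. They were chosen by name as a family, and the family was selected on a measured value: at low oxygen, Gsta1 and Gsta4 were higher in differentiation medium than in growth medium. That difference is therefore described here without a test.

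C2C12 is an established mouse myoblast line that proliferates in growth medium and can fuse into myotubes when serum is lowered. RNA was sequenced from cells in growth medium (GM, 10% fetal bovine serum) or differentiation medium (DM, 2% horse serum plus insulin, transferrin and selenium). Each medium was combined with 21% oxygen (normoxia) or 2% oxygen (hypoxia), and each of the 4 groups has 2 libraries, A and B, called biological replicates by the submitters. The design asks how oxygen alters the response to differentiation medium. All libraries come from this 1 cell line, and no gene was deleted or added in any group. The series also holds 8 libraries for the histone mark H3K27me3 and 8 input libraries, which were not analysed here.

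Cytosolic glutathione transferases fall into classes named by Greek letters, and the microsomal enzymes such as Mgst1 form a separate membrane-bound family. The conjugates they make are carried out of the cell by ABC transporters, which clears products of lipid oxidation and many foreign compounds. Several of their genes carry antioxidant response elements and respond to the transcription factor NRF2, and in skeletal muscle the enzymes are part of the defence against oxidative by-products of metabolism.

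The alpha-class genes of mouse chromosome 9 include Gsta1 and Gsta4, on which the family was selected, and sequences from this cluster are shown first. In the RefSeq annotation of GRCm38.p6 this cluster runs in the order Gsta4, the pseudogene Gm3126, Gsta1, Dppa5b, Gm3776, Dppa5c, Gm10639, Omt2a, Omt2b and Gsta2, which is 10 genes, 7 of them in the table. Gm3776 and Gm10639 are alpha-class-like protein-coding genes that are not among the 10 members. The 250 bases before the annotated start of Gsta1 (chr9:78230419-78230668, plus strand), Gm3776 (chr9:78256879-78257128, plus strand), Gm10639 (chr9:78289678-78289927, plus strand) and Gsta2 (chr9:78347146-78347395, minus strand) are given 5′ to 3′ from RefSeq, build GRCm38.p6. The authors mapped to mm9, so these positions are not those of their files. Capitals mark the 18-base run that all 4 windows share.
Gsta1: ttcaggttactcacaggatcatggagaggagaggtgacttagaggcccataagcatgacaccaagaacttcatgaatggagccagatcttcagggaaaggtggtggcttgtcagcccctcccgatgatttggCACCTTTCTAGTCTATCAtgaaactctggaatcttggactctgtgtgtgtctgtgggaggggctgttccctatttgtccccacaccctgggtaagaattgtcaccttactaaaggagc
Gm3776: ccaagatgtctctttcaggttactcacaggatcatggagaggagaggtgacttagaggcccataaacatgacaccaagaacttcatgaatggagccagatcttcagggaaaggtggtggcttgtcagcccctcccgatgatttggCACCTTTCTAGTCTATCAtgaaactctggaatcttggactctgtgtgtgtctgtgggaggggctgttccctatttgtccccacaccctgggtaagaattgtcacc
Gm10639: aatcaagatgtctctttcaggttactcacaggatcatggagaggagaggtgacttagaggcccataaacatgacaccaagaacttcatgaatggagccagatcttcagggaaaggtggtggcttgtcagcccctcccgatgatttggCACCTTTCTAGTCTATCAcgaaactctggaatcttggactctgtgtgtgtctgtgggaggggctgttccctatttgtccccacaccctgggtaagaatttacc
Gsta2: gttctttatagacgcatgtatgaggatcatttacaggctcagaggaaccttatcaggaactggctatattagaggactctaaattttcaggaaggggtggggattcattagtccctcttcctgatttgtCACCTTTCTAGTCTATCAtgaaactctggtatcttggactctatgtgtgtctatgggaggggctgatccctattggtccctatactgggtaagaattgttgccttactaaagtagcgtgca

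The shared run lies at -118 to -101 from the start of Gsta1, -105 to -88 in Gm3776, -103 to -86 in Gm10639 and -121 to -104 in Gsta2. Over aligned columns without end gaps, the Gsta1 window was 94.4% identical to that of Gm3776 and 73.3% identical to that of Gsta2. The windows of Gm3776 and Gm10639 were 98% identical. Related genes may share reads, but these windows lie before the starts, and the transcripts themselves were not compared. How the authors' counting assigned reads that match several genes is not given in the sources used here. The division of signal among Gsta1, Gm3776, Gm10639 and Gsta2 is therefore uncertain, and their summed level is given below as well. Gsta4 lies in the same cluster, and the promoter table used here has no row for it.

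Motifs were searched on both strands in the 250 bases before each start, in 11 windows of 9 members. The antioxidant response element core TGACNNNGC was present in the window of Gsta3 (TGACATTGC at -121 to -113) and in 1 of the windows of Mgst1, at -56 to -48 on the minus strand. Of 32851 mouse promoter windows of this length, 10.2% hold it. The hypoxia response core, ACGTG or GCGTG, was present for Gsta2 at -7 to -3, for Gstm1 and for Gstp1, and in 38.6% of all windows. The E-box CANNTG, which can overlap the hypoxia core, was present for Gsta3, Gstm2, Gsto1 and Mgst1, and in 66.2% of all windows. No match to these letters was found in the windows of Gsta1 and Gstt1.

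Levels are given as FPKM, fragment numbers scaled by transcript length and by library depth, so different genes are compared per length. The libraries had 14917 to 15672 genes above 0 and a relative depth of 0.633 to 1, with hypoxic differentiation medium B the shallowest and A the deepest. The absolute depth is unknown. These 2 libraries also differed most from each other: 613 genes differed more than 2-fold between them on the log2(FPKM + 1) scale, against 56 to 71 genes in the other groups. Summed FPKM of 8 proliferation markers was 123.7 in hypoxic differentiation medium A and 331.2 in B, and 88.3 to 280.3 in the other groups. Summed FPKM of 8 myoblast and myotube markers was 342.0 to 413.5 in normoxic GM, 5678 to 5690 in normoxic DM, 96.4 to 103.5 in hypoxic GM and 56.0 to 78.1 in hypoxic DM. The myotube genes were present in hypoxic differentiation medium at far lower levels than in normoxic: Myog was at 4.49 and 2.14 FPKM against 2576 and 2642 FPKM, and at 0.342 and 0.442 FPKM in hypoxic growth medium. Of 5 measured macrophage markers, Cd68 alone reached 1 FPKM, at 25.8 and 42.8 FPKM in hypoxic differentiation medium and at most 3.57 FPKM elsewhere, while Emr1 was 0 in every library. The hepatocyte markers summed to at most 0.292 FPKM and the endothelial markers to at most 0.520 FPKM in any library. The 7 fibroblast and osteochondral markers summed to 46.1 and 31.3 FPKM in hypoxic differentiation medium A and B and to 23.7 to 47.7 FPKM elsewhere. Among them, Sox9 was highest in hypoxic differentiation medium (26.5 and 19.7 FPKM) and Runx2 was lowest there (5.77 and 5.85 FPKM). The 7 adipocyte markers summed to 3.66 to 6.25 FPKM in hypoxic differentiation medium and to 22.6 and 25.0 FPKM in normoxic growth medium, mostly Cebpa (19.1 and 17.2 FPKM there) and Pparg, while Plin1 and Lep were at 0 throughout.

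Gsta1 encodes an alpha-class transferase that acts on a broad range of electrophiles and on lipid hydroperoxides. Its FPKM in libraries A and B was 1.44 and 0.987 in normoxic GM, 0.626 and 0.448 in normoxic DM, 1.92 and 1.17 in hypoxic GM, and 210.2 and 54.2 in hypoxic DM. The gene was under 2 FPKM in 6 libraries and abundant in the pair from hypoxic differentiation medium, which overlapped no other group. Normoxic and hypoxic growth medium overlapped. The mean in hypoxic differentiation medium, 132.2 ± 110.3 FPKM (SD, n = 2), was 85.6 times that in hypoxic growth medium. Gsta1 ranked 331st of all genes by FPKM in library A of that group and 1429th in library B, against ranks from 10458 to 12062 elsewhere.

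Gsta2 encodes a close relative with similar substrates. Its FPKM was 0.669 and 0.972 in normoxic GM, 0.292 and 0.213 in normoxic DM, 0.329 and 0.336 in hypoxic GM, and 51.4 and 14.0 in hypoxic DM. Both high values belong to hypoxic differentiation medium, with a group mean 98.4 times that of hypoxic growth medium. Gsta2 reached the level required for testing through that group alone, so no test of it is given. Gsta3, an alpha-class gene on chromosome 1, was at 0 in 3 libraries and at most 0.175 FPKM in any. It was below that level in all groups and was not tested.

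Gsta4 encodes the alpha-class enzyme known for conjugating the lipid aldehyde hydroxynonenal. Its FPKM was 119.3 and 116.3 in normoxic GM, 8.14 and 8.56 in normoxic DM, 50.0 and 50.6 in hypoxic GM, and 722.9 and 280.6 in hypoxic DM. The order from high to low was hypoxic differentiation, normoxic growth, hypoxic growth and normoxic differentiation medium, with no overlap between any of the groups. Gsta4 was thus well expressed in growth medium, where Gsta1 was not. Its mean in hypoxic differentiation medium, 501.7 ± 312.8 FPKM (SD, n = 2), was 9.97 times that in hypoxic growth medium and 60.1 times that in normoxic differentiation medium. It was the 119th most abundant gene in library A of that group and the 242nd in library B.

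**Figure D1:**
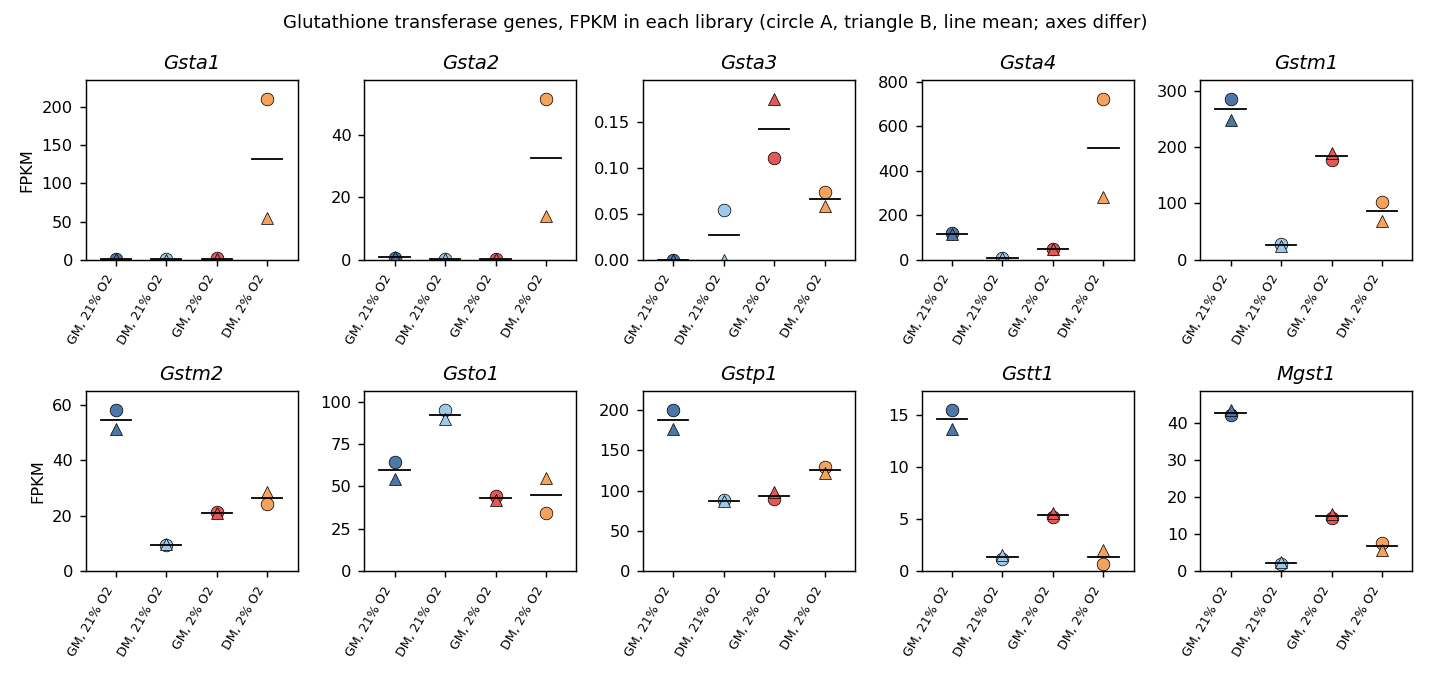
FPKM of each of the 10 genes (vertical axes, linear, different for each gene) in the 4 groups of medium and oxygen, with library A as a circle, library B as a triangle and the mean of 2 as a line. Gsta1, Gsta2 and Gsta4 are highest in both hypoxic differentiation libraries, with A above B, while Gstm1, Gstm2, Gstp1, Gstt1 and Mgst1 are highest in normoxic growth medium.

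The size of the alpha-class rise depended on the library. Within hypoxic differentiation medium, library A was 3.88 times library B for Gsta1, 3.67 times for Gsta2 and 2.58 times for Gsta4. On the log2(FPKM + 1) scale these 3 members differed more than 2-fold between replicates in that group, and no member did in the other groups. Library A was also the deeper library and had the lower summed levels of proliferation markers and of Cd68, given above, and their part in these values was not tested. On the log2(FPKM + 1) scale the described difference between hypoxic differentiation and hypoxic growth medium was 5.42 for Gsta1, 4.40 for Gsta2 and 3.14 for Gsta4. Without library A these differences were 4.46, 3.49 and 2.46, and without library B 6.39, 5.30 and 3.82. With all libraries the differences lay at percentiles 99.94, 99.85 and 99.65 of the 12389 genes tested. Gsta1 and Gsta4 were chosen for their rise in this contrast, and Gsta2 reached the level required for testing through hypoxic differentiation medium alone. These ranks therefore restate the choice and are no support. Of all genes tested 23.3% passed the threshold as higher in this contrast and 17.6% as lower. For the other 6 members above the filter on low values the described differences were smaller or negative: 0.41 for Gstp1, 0.31 for Gstm2, 0.02 for Gsto1, -1.06 for Mgst1, -1.10 for Gstm1 and -1.50 for Gstt1. That of Gsto1 changed sign with median-of-ratios scaling (-0.032), with upper-quartile scaling (-0.075), without library B of hypoxic differentiation medium (-0.32) and without library B of hypoxic growth medium (-0.015).

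The neighbours of Gsta1 in the cluster had similar values. Gm3776 was at 177.2 and 44.8 FPKM in hypoxic differentiation medium A and B and at most 1.70 FPKM elsewhere, and Gm10639 was at 38.6 and 10.7 FPKM and at most 0.454 elsewhere. The ratio of Gsta1 to Gm3776 stayed between 0.987 and 1.45 in all 8 libraries. Summed over Gsta1, Gm3776, Gm10639 and Gsta2, the level was 477.4 and 123.7 FPKM in hypoxic differentiation medium A and B and 1.20 to 4.12 FPKM in the other 6 libraries. Genes set among or beside them did not reach such levels. Omt2a and Omt2b, which lie between Gm10639 and Gsta2, were at most 0.169 and 0.0407 FPKM. Their values above 0 were in hypoxic differentiation medium alone. Ick, beyond Gsta4, was at 2.59 to 5.36 FPKM. Dppa5a, beyond Gsta2, was at 0.863 and 0.944 FPKM in hypoxic differentiation medium A and B and at most 0.203 FPKM elsewhere.

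**Figure D2:**
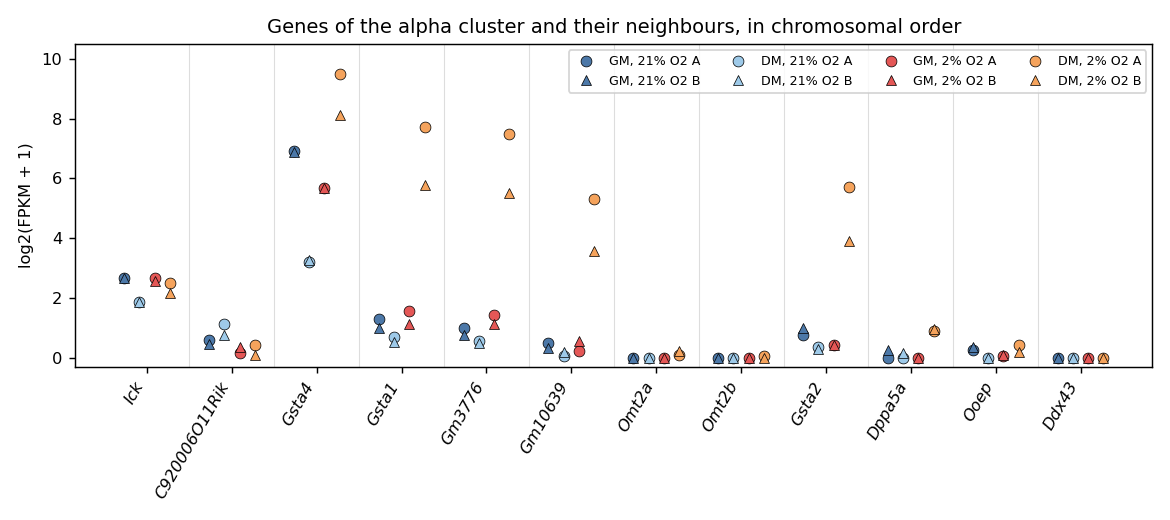
Expression as log2(FPKM + 1) of the alpha-cluster genes and their flanking genes in RefSeq order (horizontal axis, not to scale), with 1 point per library, coloured by group. The 4 genes Gsta1, Gm3776, Gm10639 and Gsta2 are high in the hypoxic differentiation libraries alone. Gsta4 is also expressed in growth medium, and Omt2a and Omt2b are at or near 0.

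The genes whose log2(FPKM + 1) followed Gsta1 most closely over the 8 libraries, among 7856 genes outside the family with a mean of at least 10 FPKM in a group, were Gm3776 (Pearson's r 0.999), Gm10639 (0.993), Hexa (0.985), Ghrh (0.983) and Acyp1 (0.976). Of these, Gm3776, Gm10639 and Ghrh reached that mean in hypoxic differentiation medium alone, the group whose high values chose Gsta1. Their likeness to Gsta1 is therefore partly built into the choice of candidates and is no support. Hexa and Acyp1 reached that mean in every group. For Gsta4 the closest were 2610001J05Rik (0.989), Arpc3 (0.987), Lrig1 (0.987), Chfr (0.986) and Lamtor5 (0.986). These genes varied far less than Gsta4, whose group means ran from 8.35 to 501.7 FPKM. Group means ran from 14.8 to 23.3 FPKM for 2610001J05Rik and from 7.17 to 25.2 FPKM for Lrig1. Gsta2 followed Gsta1 with r 0.990, and Gsta4 did so less closely, with r 0.815. These 8 points are 4 pairs of replicates with shared depth and composition, so the values are descriptions.

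Differentiation medium at 21% oxygen was compared with growth medium at 21% oxygen, a contrast that the stated rule for selecting the family did not use. The members were, however, chosen with earlier results of these data known. Most of the family fell. By limma on log2(FPKM + 1), with Benjamini-Hochberg adjustment over 12389 genes and a threshold of 0.05, 6 of the 8 members tested were lower in differentiation medium, 1 was higher and 1 did not pass. Across all genes tested 41% were lower and 25.5% higher, with a median log2 difference of -0.20. The higher genes made up 38.4% of these calls, or 53.6% with the libraries rescaled by median of ratios and 45.6% by upper quartile. Fewer cells expressing a gene and less RNA per cell cannot be told apart in these bulk libraries.

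Mgst1, the microsomal enzyme of the endoplasmic reticulum and outer mitochondrial membrane, was at 42.1 and 43.3 FPKM in normoxic GM (A and B) and at 1.97 and 2.53 FPKM in normoxic differentiation medium. Both differentiation libraries lay far below both growth libraries. The ratio of means was 19.0-fold, and the log2 difference was -3.75 ± 0.14 (SE, adjusted p 2.43e-06). Gsta4 fell 14.1-fold, with the library values given above and a log2 difference of -3.67 ± 0.38 (adjusted p 0.000191).

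Gstm1 and Gstm2 encode mu-class enzymes, which conjugate many aromatic and epoxide substrates. Gstm1 had 285.0 and 248.5 FPKM in normoxic growth medium, the highest of the family there, and 28.2 and 25.4 FPKM in normoxic differentiation medium. The groups did not overlap, and the log2 difference was -3.27 ± 0.18 (adjusted p 1.28e-05), 9.96-fold between the means. Gstm2 had 58.1 and 51.2 FPKM against 9.30 and 9.66 FPKM. It was 5.77-fold lower (log2 difference -2.41 ± 0.10, adjusted p 4.40e-06). Other mu-class genes lie beside them and resemble them in sequence, so reads may be shared there too.

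Gstt1 encodes a theta-class enzyme that acts on small halogenated compounds. Its FPKM fell from 15.5 and 13.7 to 1.22 and 1.57, 10.5-fold between means (log2 difference -2.70 ± 0.27, adjusted p 0.000151). Gstp1, the pi-class enzyme that also binds the stress kinase JNK, has the near-copy Gstp2. It fell least of the 6: its FPKM was 199.8 and 176.8 in growth medium and 88.1 and 87.1 in differentiation medium. This is a 2.15-fold difference of means (log2 difference -1.09 ± 0.09, adjusted p 6.54e-05).

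Gsto1, an omega-class enzyme with thiol transferase and dehydroascorbate reductase activity, went the other way. Its FPKM was 64.2 and 54.6 in growth medium and 94.9 and 89.8 in differentiation medium, 1.55-fold higher (log2 difference 0.63 ± 0.21, adjusted p 0.0315). The call was lost without either library of normoxic growth, normoxic differentiation or hypoxic growth medium (adjusted p 0.0544 to 0.148) and without a filter on low values (adjusted p 0.0537). Gsta1 (log2 difference -0.52 ± 0.56, adjusted p 0.437) did not pass. Its values were low in both groups, and the shared spread estimate includes the wide gap between the hypoxic differentiation libraries. Gsta1 passed without library A or B of that group (adjusted p 0.0363 and 0.0326) and with only the libraries compared (adjusted p 0.0164). The described difference of Gsta2 was -0.54, with no test.

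The response to 2% oxygen in growth medium was smaller. Of 6 members tested, 4 were lower than at 21% oxygen, none was higher and 2 did not pass. Of all genes tested 28% were lower and 13.5% higher, with a median log2 difference of -0.14. The higher genes made up 32.6% of these calls, or 43.4% with the libraries rescaled by median of ratios and 49.3% by upper quartile. Mgst1 fell to 14.4 and 15.4 FPKM (log2 difference -1.46 ± 0.14, adjusted p 0.000451). Gstm2 fell to 21.4 and 20.9 FPKM (-1.33 ± 0.10, adjusted p 0.000228). Both genes were below both normoxic growth libraries. Gstt1 fell to 5.18 and 5.58 FPKM (-1.29 ± 0.27, adjusted p 0.00909), a call lost without library A of normoxic growth medium (adjusted p 0.0592) or library A of hypoxic growth medium (adjusted p 0.0572). Gstp1 fell to 89.8 and 98.1 FPKM (-0.99 ± 0.09, adjusted p 0.000354), close to its level in normoxic differentiation medium.

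Gstm1 stayed the most abundant member in hypoxic growth medium, at 177.6 and 189.6 FPKM. Its difference did not pass the threshold (-0.53 ± 0.18, adjusted p 0.0537), nor did that of Gsto1, at 44.1 and 42.1 FPKM (-0.45 ± 0.21, adjusted p 0.124). For both genes the hypoxic libraries lay below the normoxic ones without overlap. Leaving out either library of hypoxic differentiation medium did not change these differences (-0.53 for Gstm1 and -0.45 for Gsto1). Both genes then passed, but more of all genes tested passed as well. The change of call is therefore not particular to these members. The described differences, with no test, were -1.21 for Gsta4, -0.45 for Gsta2 and 0.19 for Gsta1, the latter -0.024 without library A of hypoxic growth medium.

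In differentiation medium the comparison of 2% with 21% oxygen had the opposite direction for most members. Of 6 tested, 4 were higher at 2% oxygen, 1 was lower and 1 did not pass. Of all genes tested 37.5% were higher and 27.7% lower, with a median log2 difference of 0.15. The higher genes made up 57.5% of these calls, or 46.5% with the libraries rescaled by median of ratios and 54.8% by upper quartile. This comparison shares the normoxic differentiation libraries with the first one, where the same genes were low, so the 2 directions are not independent.

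Gstm1 was at 103.4 and 69.7 FPKM in hypoxic differentiation medium, above both normoxic differentiation libraries and below all growth medium libraries (log2 difference from normoxic differentiation medium 1.63 ± 0.18, adjusted p 0.000266). Gstm2, at 24.4 and 28.6 FPKM, was 2.79-fold higher than in normoxic differentiation medium (1.39 ± 0.10, adjusted p 4.35e-05). Mgst1, at 7.54 and 5.82 FPKM, was 2.97-fold higher (1.24 ± 0.14, adjusted p 0.000286). These 3 genes kept clear of their normoxic growth medium levels, which were higher in both libraries. Gstp1, at 129.3 and 121.7 FPKM, was 1.43-fold higher (0.51 ± 0.09, adjusted p 0.00216).

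Gsto1 was again the exception, at 34.4 and 55.2 FPKM against 94.9 and 89.8 FPKM at 21% oxygen (-1.06 ± 0.21, adjusted p 0.00359). Its hypoxic differentiation libraries spanned those of hypoxic growth medium. Gstt1 did not pass (-0.08 ± 0.27, 95% interval -0.72 to 0.56, adjusted p 0.806), and its libraries at 0.674 and 2.05 FPKM lay on either side of the normoxic pair. Without hypoxic differentiation library B it was lower (-0.51, adjusted p 0.0150), and without library A the difference was 0.35 (adjusted p 0.0572). It was 0.028 (adjusted p 0.955) without library B of normoxic differentiation medium. For the alpha class the described differences were 6.14 for Gsta1, 5.59 for Gsta4 and 4.49 for Gsta2.

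**Figure D3:**
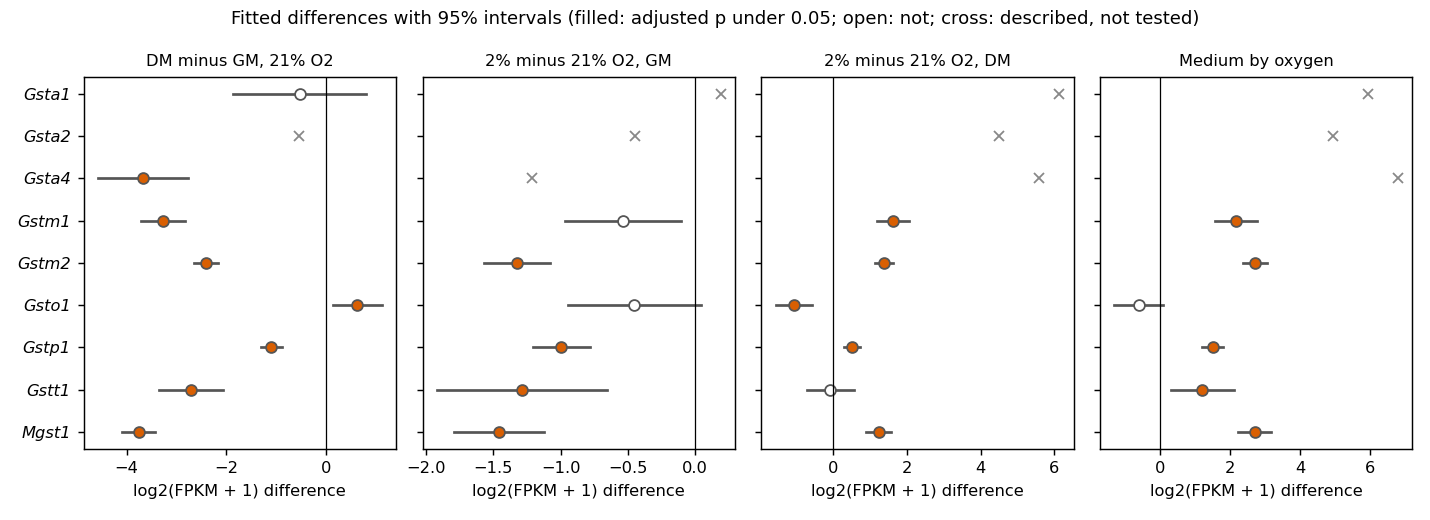
Fitted log2(FPKM + 1) differences of 9 genes (rows) in 4 contrasts, with 95% intervals from limma, filled points at adjusted p under 0.05, open points above it and crosses for differences described without a test. Most tested members lie left of 0 for differentiation medium at 21% oxygen and right of 0 for low oxygen in differentiation medium, and Gsto1 has the reverse pattern.

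The interaction asks whether the difference between media changed with oxygen, taken as the difference at 2% oxygen minus that at 21%. Of 6 members tested, 5 were positive and 1 did not pass. Of all genes tested 35.4% were positive and 18.7% negative, with a median of 0.27. The positive genes made up 65.5% of these calls, or 47.3% with the libraries rescaled by median of ratios and 53.6% by upper quartile. Gstm2 (2.71 ± 0.15, adjusted p 2.70e-05), Mgst1 (2.70 ± 0.20, adjusted p 8.86e-05), Gstm1 (2.17 ± 0.26, adjusted p 0.000636) and Gstp1 (1.51 ± 0.13, adjusted p 0.000151) had a more positive difference between media at 2% than at 21% oxygen. Gstt1 (1.21 ± 0.38, adjusted p 0.0324) lost its call under 10 of 18 alternatives, up to adjusted p 0.134. They include each library left out in turn from normoxic growth, normoxic differentiation and hypoxic growth medium (0.0674 to 0.112) and median-of-ratios scaling (0.0502). Gsto1 did not pass (-0.61 ± 0.29, adjusted p 0.117). The call was made with both rescalings, by median of ratios (-0.94, adjusted p 0.0149) and by upper quartile (-0.84, adjusted p 0.0218), with array quality weights (0.0472), and without library B of hypoxic differentiation medium (-0.95, adjusted p 0.00187).

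The make-up of the family changed with the group. Summed FPKM of the 10 genes was 786.1 and 706.5 in normoxic GM, 232.8 and 225.2 in normoxic DM, 404.8 and 423.9 in hypoxic GM, and 1284 and 631.9 in hypoxic DM. Alpha-class genes made up 15.4% and 16.7% of that sum in normoxic GM, 3.92% and 4.09% in normoxic DM, 12.9% and 12.3% in hypoxic GM, and 76.7% and 55.2% in hypoxic DM. Mu-class genes were the largest class in both growth media, at 42.4% to 49.6%. In normoxic differentiation medium Gsto1 made up 40.8% and 39.9% of the sum and Gstp1 37.9% and 38.7%. These shares restate the levels that chose Gsta1 and Gsta4 and carry no test.

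Other genes of glutathione metabolism are given as counts over lists, to be read against the shares of all genes: 41% lower and 25.5% higher in the first comparison, of media at 21% oxygen, and 37.5% higher and 27.7% lower in the second, of oxygen in differentiation medium. Of 18 further transferases and related membrane proteins, 13 were tested. In differentiation medium at 21% oxygen 8 of the 13 were lower and 1 was higher than in growth medium. In differentiation medium 7 were higher and 1 was lower at 2% than at 21% oxygen. The median log2 differences were -1.15 and 0.51. With median-of-ratios scaling 7 were lower and 2 higher in the first comparison, and 6 higher and 2 lower in the second. The shares of all genes also moved with that scaling. The higher genes made up 53.6% of all calls in the first comparison and 46.5% in the second, against 38.4% and 57.5% without scaling. Mgst3, a microsomal relative of Mgst1, had 157.5 and 124.6 FPKM in normoxic growth, 34.3 and 28.4 in normoxic differentiation, 113.1 and 132.6 in hypoxic growth, and 111.4 and 104.7 in hypoxic differentiation medium. It fell by 2.13 ± 0.15 on the log2 scale in the first comparison (adjusted p 3.31e-05) and was higher by 1.76 ± 0.15 in the second (adjusted p 7.53e-05). Ltc4s, the leukotriene synthase, fell from 10.4 and 7.15 to 0.331 and 0.264 FPKM (-2.89 ± 0.17, adjusted p 1.63e-05) and Mgst2 from 36.5 and 29.4 to 5.28 and 3.68 FPKM (-2.64 ± 0.19, adjusted p 3.58e-05).

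Another list holds genes that supply glutathione. Of 7 tested synthesis and cystine uptake genes, 4 were higher and 2 lower in normoxic differentiation than in normoxic growth medium, and 1 was higher and 4 were lower at 2% than at 21% oxygen in differentiation medium. Cth, which makes cysteine from cystathionine, rose from 0.739 and 1.08 to 52.9 and 51.1 FPKM (log2 difference 4.80 ± 0.12, adjusted p 4.43e-07) and was at 4.26 and 4.86 FPKM in hypoxic differentiation medium (-3.25 ± 0.12 from normoxia, adjusted p 2.14e-06). Slc7a11 and Slc3a2 encode the cystine antiporter and its partner chain. Slc3a2 rose from 36.3 and 30.8 to 392.5 and 389.8 FPKM (3.51 ± 0.11, adjusted p 1.10e-06) and was at 88.1 and 103.9 FPKM in hypoxic differentiation medium (-2.02 ± 0.11, adjusted p 1.05e-05). Both Cth and Slc3a2 were highest in normoxic differentiation medium, the group in which Gsta4, Gstm1, Gstm2 and Mgst1 were lowest.

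A further list holds genes that reduce glutathione or supply NADPH. Of 12 tested, 7 were lower and 1 was higher in the first comparison, and 7 were higher and 2 lower in the second. With median-of-ratios scaling the 1 higher became 3 and the 2 lower became 4, and the counts of 7 did not change. The higher genes made up 53.6% and 46.5% of all calls with that scaling in the first and second comparison. Idh1, the cytosolic isocitrate dehydrogenase that makes NADPH, was at 96.7 and 101.5 FPKM in normoxic growth, 10.4 and 10.4 in normoxic differentiation, 31.0 and 31.2 in hypoxic growth, and 97.4 and 79.7 in hypoxic differentiation medium. Its differences were -3.13 ± 0.10 (adjusted p 1.37e-06) and 2.97 ± 0.10 (adjusted p 1.57e-06).

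Among NRF2, its partners and its known targets, 11 of 18 tested were lower and 1 higher in the first comparison, and 12 were higher and 3 lower in the second, with medians of -0.96 and 1.02. The 1 higher became 3 under both median-of-ratios and upper-quartile scaling, where the counts of 11 and 12 did not change. Higher genes made up 53.6% and 46.5% of all calls in the first and second comparison by median of ratios. By upper quartile these shares were 45.6% and 54.8%. Nqo1, a quinone reductase, fell from 16.3 and 17.4 to 2.53 and 1.53 FPKM (-2.58 ± 0.19, adjusted p 4.64e-05) and was at 11.3 and 8.29 FPKM in hypoxic differentiation medium (1.84 ± 0.19, adjusted p 0.000213). Ephx1, the microsomal epoxide hydrolase, was at 94.7 and 88.3 FPKM in normoxic growth, 31.6 and 29.5 in normoxic differentiation, 256.0 and 268.4 in hypoxic growth, and 391.6 and 249.4 in hypoxic differentiation medium. It fell by 1.55 ± 0.19 (adjusted p 0.000453) and was higher by 3.31 ± 0.19 (adjusted p 1.43e-05). Tkt, the transketolase of the pentose phosphate pathway, fell by 1.91 ± 0.11 (adjusted p 1.40e-05) and was higher by 2.44 ± 0.11 (adjusted p 4.13e-06).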

How the data were processed

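Gene expression was measured by RNA-seq of total RNA in C2C12 cells, 2 libraries in each of 4 groups. The authors aligned and quantified reads with STAR 2.5.1b and Cufflinks 2.2.1 on mm9, per the submitters' processing notes; the annotation, strand setting and treatment of reads with several matches are not given in the sources used here. The deposited values are FPKM, 1 column per library, with no counts, so no count test was run.

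Values were analysed with limma 3.58.1 (R 4.3.3, trend) on log2(FPKM + 1). Genes needed a mean of 1 FPKM in a group, which left 12389 of 17914 genes above 0. All 8 libraries were fitted with 4 group means (4 residual and 2.61 prior degrees of freedom), two-sided, Benjamini-Hochberg over all genes tested, threshold 0.05. Fold changes on this scale understate those of low genes. The contrast that chose Gsta1 and Gsta4 was not tested for any member, these 2 genes were tested in normoxia alone, and Gsta2 was not tested because it passed the filter through hypoxic differentiation medium alone, a choice made after its values were seen. The fit was tested on simulated data with the same spread in every group. It does not show how the fit handles the wider spread of the hypoxic differentiation libraries.

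The members and lists were chosen with earlier results of these data known. Named from each list were genes among the 3 largest called differences in normoxic differentiation against growth medium or in hypoxic against normoxic differentiation medium. Of 24043 symbols, 22883 matched current RefSeq symbols. Alternatives were other pseudocounts, filters, scalings, variance models, weights, a replicate block and leaving out each library. Sequences come from RefSeq (GRCm38.p6), aligned with Biopython 1.88.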

Additional observations from a re-analysis of the deposited data

Results flagged for a closer look

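The difference between media changed with oxygen, by limma's interaction test, for Gstm2 (2.71 on the log2 scale), Mgst1 (2.70), Gstm1 (2.17), Gstp1 (1.51) and Gstt1 (1.21), all with a more positive difference at 2% oxygen. Of all genes tested 35.4% were positive and 18.7% negative. The call of Gstt1 was lost with median-of-ratios scaling (adjusted p 0.0502 by limma) and without a filter on low values (adjusted p 0.0582). For Gsta4 (6.80), Gsta1 (5.95) and Gsta2 (4.93) every library of differentiation medium lay below those of growth medium at 21% oxygen and above them at 2% oxygen. The difference was not tested for these 3 genes, since the high hypoxic differentiation values chose Gsta1 and Gsta4 and carried Gsta2 past the filter. How many of all genes had this order of libraries was not counted.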

How the results depend on the processing

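With 2 libraries a group and no absolute depth, values of Gsta1 and Gsta2 under 2 FPKM rest on few fragments. Directions of the members' differences held under the alternatives run, with these exceptions. The described difference of Gsta1 between hypoxic and normoxic growth medium ranged from -0.024 to 0.41 with 1 library left out. That of Gstt1 between hypoxic and normoxic differentiation medium ranged from -0.51 to 0.35. That of Gsto1 between hypoxic differentiation and hypoxic growth medium ranged from -0.32 to 0.35, and was -0.032 after median-of-ratios and -0.075 after upper-quartile scaling. The cause was not tested. Members called in hypoxic against normoxic growth medium numbered 3 to 6 with 1 library left out, and all genes called there 2997 to 6844. Requiring a log2 difference of at least 1 as well left 3542, 1268, 3420 and 3410 genes called in the comparisons of media at 21% oxygen, of oxygen in growth medium, of oxygen in differentiation medium and in the interaction, from 8241, 5135, 8075 and 6707. The letters A and B did not pair the samples: the correlations of A minus B differences between groups were -0.17 to 0.04. With the replicate block 7, 5, 5 and 5 members were called in these 4 comparisons, against 7, 4, 5 and 5 without it. The added call is Gstm1 in growth medium (adjusted p 0.0431 by limma). Over all genes, fewer were called with the block in the comparison of media at 21% oxygen and in both comparisons of oxygen. The member counts did not follow that fall.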

Other observations

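Genes that break down or export glutathione, and enzymes that oxidise aldehydes, had mixed directions. Of all genes tested 41% were lower and 25.5% higher in the first comparison, of media at 21% oxygen. In the second, of oxygen in differentiation medium, 37.5% were higher and 27.7% lower. Of 10 tested turnover and export genes, 4 were higher and 6 lower in normoxic differentiation than in normoxic growth medium, and 5 were higher and 5 lower at 2% than at 21% oxygen in differentiation medium. Chac1, which cleaves glutathione inside the cell, was at 2.09 and 2.32 FPKM in normoxic growth, 134.9 and 139.3 in normoxic differentiation, 29.9 and 31.2 in hypoxic growth, and 26.0 and 24.2 in hypoxic differentiation medium. By limma it rose by 5.43 ± 0.08 (SE) in the first comparison (adjusted p 1.82e-07) and fell by 2.41 ± 0.08 in the second (adjusted p 1.36e-06).

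Of 12 tested aldehyde enzymes, 7 were lower and 3 higher in the first comparison, and 3 were higher and 4 lower in the second. These counts are to be read against the same shares of all genes. Aldh3a1, which oxidises aldehydes from lipid peroxidation, was at 52.9 and 44.4 FPKM in normoxic growth, 0.4995 and 0.724 in normoxic differentiation, 21.5 and 23.7 in hypoxic growth, and 3.49 and 3.17 in hypoxic differentiation medium. Its highest group was thus normoxic growth medium, whereas that of Gsta4 was hypoxic differentiation medium. By limma it fell by 4.94 ± 0.13 in the first comparison (adjusted p 5.50e-07) and was higher by 1.43 ± 0.13 in the second (adjusted p 0.000106).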
